A study of Mus musculus with 4 samples.

Results

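Heat shock proteins and their co-chaperones were measured in CD31+ spleen cells sorted from Ackr4GFP/wt mice. The set held every gene whose array name begins with Hsp followed by a family letter or number, with Dnaja, Dnajb or Dnajc followed by a number, or is Bag1 to Bag6. This gave 79 genes on 119 probes, of 30199 genes on 39429 probes on the array. The rule reads gene names. All 79 names match a current RefSeq gene symbol.

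The mice carried 1 Ackr4 allele with a green fluorescent protein reporter (GFP) and 1 wild-type allele. Ackr4 encodes an atypical chemokine receptor that scavenges chemokines. Living CD31+ CD45- DAPI- single cells were divided by GFP, and the populations with it (ACKR4-positive) and without it (ACKR4-negative) share genotype and tissue handling. No treatment, age or strain beyond the reporter is named in the sources used here. Spleens were digested at 37 °C for 45 min and a further 20 min, and 6 to 20 ng of RNA was amplified once for 1-colour Agilent arrays. There were 2 independent sorts, each on a pool of cells from 2 to 3 mice, and each sort gave 1 array per population. The arrays of replicate 1 are called sort 1 here and those of replicate 2 sort 2, because the replicate numbers and the mouse numbers in the sample titles run together. The GFP gate is a reporter gate, and each array is a pool rather than 1 animal. With 2 arrays on each side of a comparison, the number of arrays limits the precision of every value.

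A level is the log2 processed signal minus the array's 75th percentile over all non-control probes, so that 0 equals that percentile. One probe, the brightest on average, stands for a gene. Between 54.9% and 58.3% of all probes were well above background per array, and 66 or 67 of the 79 members. All 10 endothelial markers examined, among them Pecam1, Cdh5, Tie1 and Eng, were above background on all 4 arrays. Their log2 summed level was 8.66 and 8.54 in ACKR4-negative arrays, compared with 7.90 and 7.89 in ACKR4-positive arrays. Markers of other cell types were also present, and their values stand beside the results they move with. In such bulk samples, fewer cells of a type and less RNA per cell cannot be told apart.

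Heat shock proteins are chaperones that hold, fold and refold other proteins. The Hsp70 proteins (Hspa genes) bind unfolded stretches in cycles of ATP hydrolysis. J-domain proteins (Dnaj genes) deliver clients and trigger the hydrolysis, and Bag proteins and the Hsp110 proteins release the nucleotide and thereby the client. Hsp90 proteins take over late folding steps, Hspd1 and Hspe1 form the folding chamber of mitochondria, and small heat shock proteins (Hspb genes) hold denatured proteins until Hsp70 takes them over. Heat, toxic stress and tissue dissociation are known to induce a subset through heat shock factor 1, which binds repeated GAA units in promoters. Unfolded protein in the endoplasmic reticulum (ER) induces another subset through ATF6 and XBP1, which act at the ER stress element.

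These elements were searched in the 250 bases before the start of each gene in a RefSeq table on GRCm38.p6, which held 64 of the 79 members. The heat shock element was taken as 3 alternating units, GAA or its complement TTC, with any 2 bases between units, on both strands. It was found in 3 of 64 members (4.69%), Hspd1, Hspe1 and Dnajb6, and in 139 of 27025 genes (0.514%) of the table. The looser form of 2 adjacent units, which every 3-unit match also holds, was found in 13 of 64 members (20.3%) and in 14.5% of all genes. Among the 12 genes of a stress-inducible list in the table, which holds cytosolic chaperones and the mitochondrial chaperonins Hspd1 and Hspe1, it was found in 8 (66.7%). These were Hspa1a, its near copy Hspa1b, which is no member, Hsph1, Dnaja1, Dnajb4, Hspb1, Hspd1 and Hspe1. The ER stress element, CCAAT followed by any 9 bases and CCACG, was found in Hspa5, Hsp90b1 and Dnajc3 and in 35 of all genes (0.13%). A match describes these letters and does not show a bound site.

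The upstream sequences of 5 members are shown as examples of these motifs. They run 5′ to 3′ on the gene's strand, ending at the last base before the start, with the matched motif in capitals. Hspa1a (chr17:34972157-34972406, minus strand) holds 2 adjacent heat shock units whose last base is at position -97, counted back from -1 at the last base before the start. Hspe1 (chr1:55087898-55088147, plus strand) holds 3-unit matches in a stretch that it shares with its neighbour Hspd1, whose gene model overlaps it by 95 bases. Hspa5 (chr2:34771840-34772089, plus strand), Hsp90b1 (chr10:86705445-86705694, minus strand) and Dnajc3 (chr14:118937682-118937931, plus strand) hold the ER stress element.
Hspa1a: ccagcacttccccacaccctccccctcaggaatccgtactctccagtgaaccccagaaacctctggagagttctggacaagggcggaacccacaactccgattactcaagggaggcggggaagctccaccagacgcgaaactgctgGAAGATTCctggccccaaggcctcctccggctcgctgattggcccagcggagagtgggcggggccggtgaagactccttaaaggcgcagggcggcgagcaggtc
Hspe1: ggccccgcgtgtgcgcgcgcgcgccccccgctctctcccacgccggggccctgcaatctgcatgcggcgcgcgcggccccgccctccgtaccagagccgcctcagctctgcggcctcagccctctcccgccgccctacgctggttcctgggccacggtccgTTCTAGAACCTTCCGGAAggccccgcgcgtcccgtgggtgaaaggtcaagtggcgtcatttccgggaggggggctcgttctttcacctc
Hspa5: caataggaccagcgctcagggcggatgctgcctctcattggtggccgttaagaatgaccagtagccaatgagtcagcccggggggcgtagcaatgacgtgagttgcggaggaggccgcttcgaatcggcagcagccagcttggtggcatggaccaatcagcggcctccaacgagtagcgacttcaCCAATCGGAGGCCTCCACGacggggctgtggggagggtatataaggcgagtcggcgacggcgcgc
Hsp90b1: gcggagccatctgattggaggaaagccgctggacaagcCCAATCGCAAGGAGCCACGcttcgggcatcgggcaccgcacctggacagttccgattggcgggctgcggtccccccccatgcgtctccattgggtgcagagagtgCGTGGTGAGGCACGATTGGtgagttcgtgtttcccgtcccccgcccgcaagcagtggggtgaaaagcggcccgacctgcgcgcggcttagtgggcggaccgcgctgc
Dnajc3: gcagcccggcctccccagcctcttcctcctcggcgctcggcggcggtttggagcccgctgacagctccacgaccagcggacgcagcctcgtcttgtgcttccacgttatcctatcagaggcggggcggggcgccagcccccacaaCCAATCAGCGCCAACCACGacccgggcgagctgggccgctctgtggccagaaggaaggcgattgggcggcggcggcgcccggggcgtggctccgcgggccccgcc
In Hspa1b, the near copy of Hspa1a, the same 250 bases differ at 3 positions. No probe of the array is named Hspa1b, and whether the Hspa1a probe also binds its RNA was not tested, so the values of Hspa1a may include both.

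Of the 79 members, 64 were well above background on all 4 arrays, 5 on 1 to 3 arrays (Hspa12a, Hspb2, Hspb7, Hspb8 and Dnajc27) and 10 on none. The 10 were Hspb3, Dnajb7, Dnajb8, Dnajb13, Dnajc5b, Dnajc5g, Dnajc6, Dnajc22, Dnajc28 and Hspbap1. For the 64 measured throughout, the range over the 4 arrays had a median of 0.62 (log2), and it stayed under 1 in 48. In 40 of the 64 the difference between sorts was larger in size than the difference between populations. No count over all genes stands beside these values, so they do not set the members apart.

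**Figure D1:**
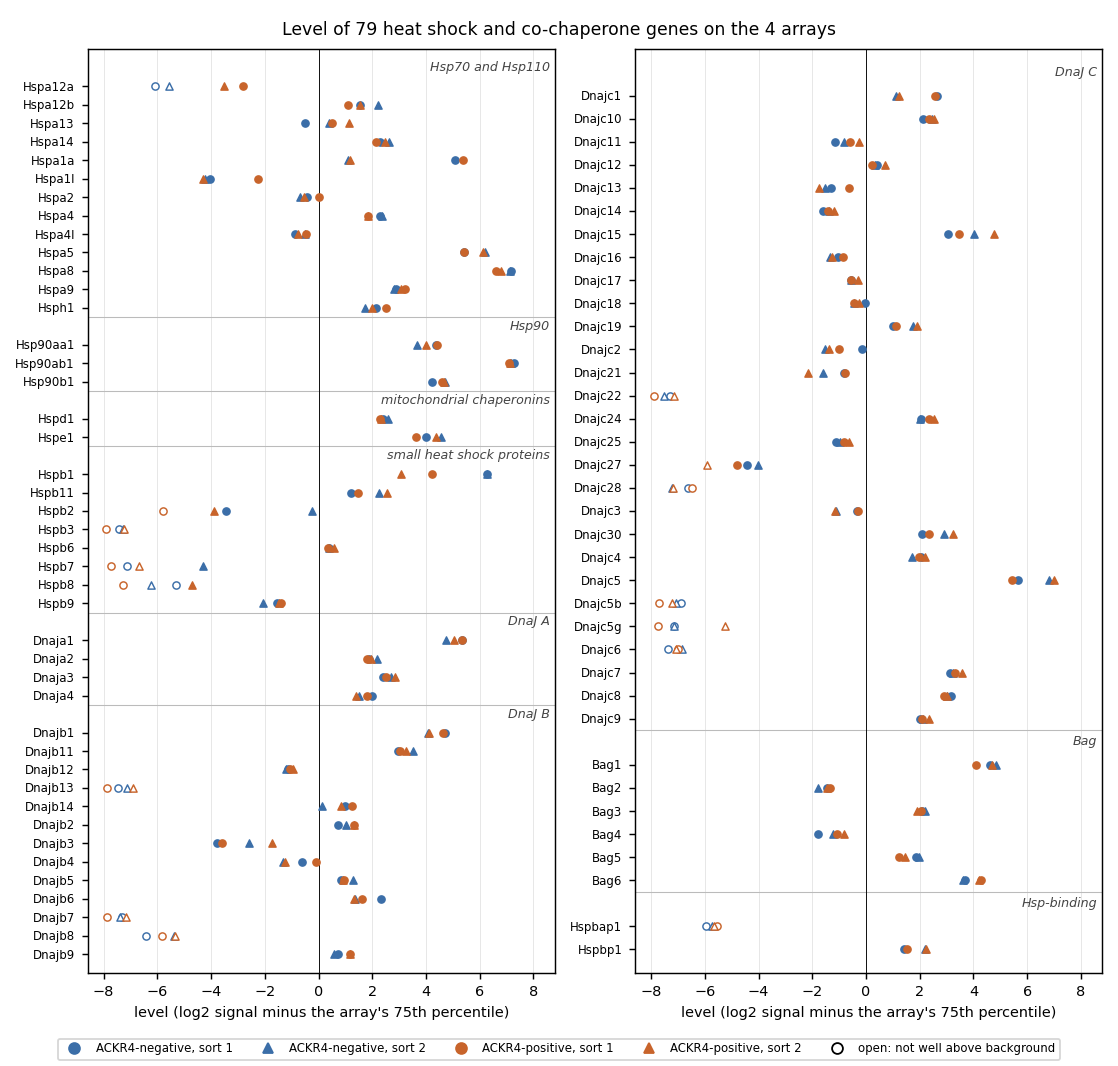
Level of each of the 79 members (log2 signal minus the array's 75th percentile, horizontal axis) on the 4 arrays, grouped by family, with colour for population, shape for sort and open symbols for spots not well above background. Most members form tight clusters, while Hspa1a splits by sort (5.07 and 5.36 against 1.10 and 1.17) and Hspb1 by population.

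The first comparison asks how the 2 sorts differed. Hspa1a, which encodes the stress-inducible cytosolic Hsp70, had levels of 5.07 in ACKR4-negative and 5.36 in ACKR4-positive cells of sort 1. In sort 2 the levels were 1.10 and 1.17. Both sort 1 arrays were high, both sort 2 arrays were low, and within a sort the populations lay within 0.30 of each other. The gene fell by 4.08 ± 0.22 on the log2 scale from sort 1 to sort 2 (standard error, limma with sort and population as terms, adjusted p = 0.00221), a 16.9-fold difference. It was the largest fall but 1 among the 17105 genes tested. Its difference was -3.96 in ACKR4-negative and -4.19 in ACKR4-positive cells. The probe lies at chr17:35107117-35107176 on the minus strand of mm9.

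Of the 66 members tested between sorts, 7 passed the threshold of 0.05 after Benjamini-Hochberg adjustment over all genes, against 11.0% of all genes tested. Hspa1a and Dnajc1 fell in sort 2, where 3.81% of all genes were called lower. Hspb2, Dnajb3, Dnajc5, Dnajc15 and Hspb11 rose, where 7.23% of all genes were called higher. A difference of at least 2-fold in the same direction in both populations was present in 4 members higher in sort 2 (6.06%, against 5.52% of all genes) and in 2 members lower (3.03%, against 2.75%). These shares lie near those of all genes. The direction was the same in both populations in 75.8% of the members and in 76.1% of all genes tested. That share was not split by side, so counts of list genes higher or lower in both populations, given below, do not set a list apart. The median difference was 0.07 over the tested members and 0.15 over all tested genes. With quantile normalization, which moved the median of all genes to 0.04, only Hspa1a and Dnajc1 passed, so that 0 members were called higher and 2 lower. With no term for population no gene of the array was called (limma, 13 members and 2672 genes at an unadjusted p under 0.05), and Hspa1a then had an adjusted p of 0.0801. The p-values of the fit with sort and population rest on 1 residual degree of freedom per gene. That residual holds how far the sort difference varies between the 2 populations of the same sorts. With 1 sort on each side, neither fit measures the spread between sorts.

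**Figure D2:**
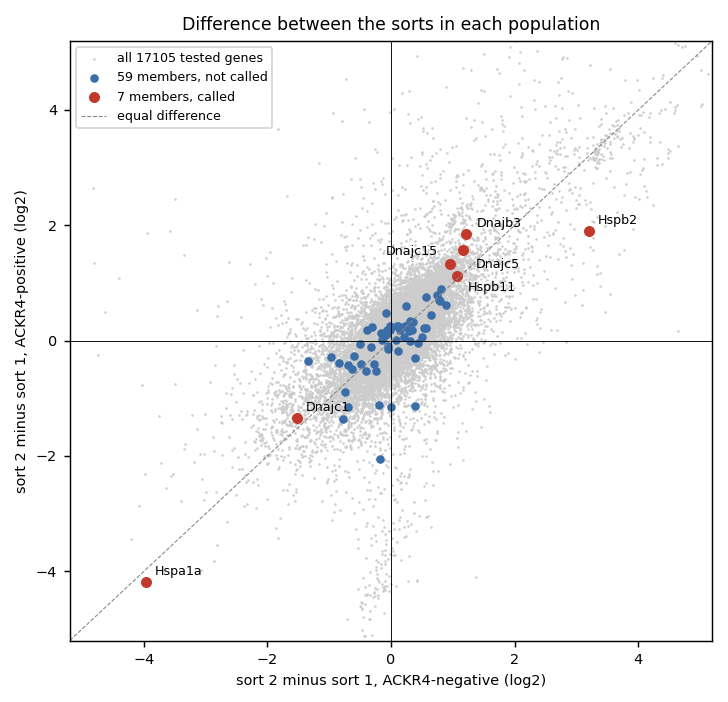
Difference between sorts (sort 2 minus sort 1, log2) in ACKR4-negative cells (horizontal) and ACKR4-positive cells (vertical) for all 17105 tested genes (grey) and the 66 tested members (coloured). Hspa1a lies at -3.96 and -4.19, far below the other members, and Hspb2 at 3.20 and 1.90 lies to the right of the diagonal; 39 genes lie outside the axes.

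The other genes of the stress-inducible list had differences of smaller size than Hspa1a. The list also holds Hspd1 and Hspe1, which are counted among the mitochondrial chaperones too. Of its 13 tested members, 1 fell and none rose, with 5 at an unadjusted p under 0.05 (Hspa1a, Dnajb1, Hsp90aa1, Dnajb4 and, in the other direction, Hspe1) and a median of -0.44. In all, 6 genes were lower in sort 2 in both populations and 2, the mitochondrial Hspd1 and Hspe1, were higher in both. Dnajb1, the J-domain partner that heat shock induces with Hsp70, had levels of 4.72 and 4.62 in sort 1 and 4.09 and 4.12 in sort 2. Both sort 2 arrays lay below both sort 1 arrays, with a difference of -0.57 ± 0.21 that did not pass (adjusted p = 0.137).

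Hsp90aa1, the inducible cytosolic Hsp90, had levels of 4.38 and 4.43 in sort 1 and 3.68 and 4.00 in sort 2 (-0.57 ± 0.22, adjusted p = 0.146). Dnajb4, another J-domain protein of this group, had levels of -0.64 and -0.10 in sort 1 and -1.33 and -1.24 in sort 2 (-0.92 ± 0.23, adjusted p = 0.0646). Hsph1, the inducible Hsp110, differed by -0.47 ± 0.21 (adjusted p = 0.192) and Dnaja1 by -0.44 ± 0.22 (adjusted p = 0.231). In Dnajb1, Hsp90aa1, Dnajb4, Hsph1 and Dnaja1 no sort 2 array reached the sort 1 array of its own population, and none of these differences passed the test. Among all genes tested 76.1% had 1 direction in both populations. In the same list Hspa8, Hsp90ab1, Hspa4l, Bag3 and Hspb1 went opposite ways in the 2 populations, and Hspd1 and Hspe1 were higher in both.

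Hspb1, also in this group, differed by -0.57 ± 0.33 between sorts (limma, adjusted p = 0.277). Its difference was 0.006 in ACKR4-negative and -1.15 in ACKR4-positive cells. Smaller sort differences were found in Hspa8, Hsp90ab1, Bag3 and Hspa4l. Hspa8, the constitutive cytosolic Hsp70, had levels of 7.15 and 7.13 in ACKR4-negative cells, compared with 6.61 and 6.79 in ACKR4-positive cells (sort difference 0.08 ± 0.21, adjusted p = 0.822). Hsp90ab1, the constitutive Hsp90, ranged from 7.08 to 7.29 over the 4 arrays. Bag3, a nucleotide exchange factor of Hsp70 that heat shock also induces, ranged from 1.88 to 2.20, with a sort difference of -0.04 ± 0.22 (adjusted p = 0.923). Hspa4l differed by 0.05 ± 0.26. Hspb8, a partner of Bag3, was above background only on the ACKR4-positive array of sort 2 and was not tested.

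Hspa1l, which lies 547 bases from Hspa1a in RefSeq and is best known from testis, had levels of -4.05 and -4.22 in ACKR4-negative cells, compared with -2.26 and -4.31 in ACKR4-positive cells. A single array, ACKR4-positive of sort 1, was high, and the difference of -1.11 ± 0.46 did not pass (adjusted p = 0.164). Of the 12 tested Hsp70 and Hsp110 genes, 1 fell between sorts and none rose. Hspa2, Hspa4, Hspa14 and the mitochondrial Hspa9 differed by -0.39 to 0.32. Hspa12b, an atypical Hsp70 known from endothelial cells, had levels of 1.56 and 2.21 in ACKR4-negative cells, compared with 1.10 and 1.56 in ACKR4-positive cells (0.55 ± 0.21, adjusted p = 0.148).

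Of 9 tested ER chaperones 1 fell and none rose, 4 had an unadjusted p under 0.05, and the median was 0.26. Hspa5, the ER Hsp70 also called BiP, had levels of 5.41 and 5.43 in sort 1 and 6.18 and 6.13 in sort 2. Both sort 2 arrays were higher, and the difference of 0.74 ± 0.21 did not pass (adjusted p = 0.0819). Hspa13, another Hsp70 of the ER, differed by 0.75 ± 0.22 (adjusted p = 0.0848), and Hsp90b1, the ER Hsp90, by 0.28 ± 0.23 (adjusted p = 0.43).

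Of the J-domain partners of Hspa5, Dnajc1 passed. Dnajc1, anchored in the ER membrane, had levels of 2.65 and 2.57 in sort 1 and 1.13 and 1.23 in sort 2, so that the sorts did not overlap. It fell by 1.43 ± 0.21 (adjusted p = 0.0218). Dnajc3, which restrains the kinase PERK and assists Hspa5, had levels of -0.35 and -0.28 in sort 1 and -1.10 and -1.17 in sort 2 (-0.82 ± 0.21, adjusted p = 0.0671). Thus 3 genes whose upstream sequences hold the ER stress element, Hspa5, Hsp90b1 and Dnajc3, had sort differences of 0.74, 0.28 and -0.82. Dnajb9 and Dnajb11, further J-domain partners of Hspa5, differed by -0.06 ± 0.21 and 0.39 ± 0.22, and Dnajc10 by 0.26.

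Of 8 tested mitochondrial chaperones 1 rose and none fell, 4 had an unadjusted p under 0.05, and the median was 0.50 against 0.15 for all genes. By their brightest probe 7 were higher in both populations, while 76.1% of all genes tested had 1 direction in both. Other probes of Dnajc11 and Dnajc19 differed by -1.04 and -0.64. Dnajc15, a J-domain protein of the inner-membrane import motor, had levels of 3.06 and 3.45 in sort 1 and 4.02 and 4.78 in sort 2. The sorts did not overlap, and the gene rose by 1.14 ± 0.22 (adjusted p = 0.0399).

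Dnajc30, a mitochondrial J-domain protein that serves respiratory complex I, had levels of 2.09 and 2.35 in sort 1 and 2.90 and 3.25 in sort 2 (0.85 ± 0.21, adjusted p = 0.0625). Hspe1, the co-chaperonin, differed by 0.66 ± 0.21 (adjusted p = 0.107), and its partner Hspd1 by 0.14 ± 0.21 (adjusted p = 0.684), although their upstream sequences overlap and share the 3-unit heat shock element. Dnajb6, the third member with that element, had levels of 2.31 and 1.62 in sort 1 and 1.35 and 1.33 in sort 2 (-0.63 ± 0.26, adjusted p = 0.161).

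The remaining called J-domain genes rose in sort 2. Dnajb3, a gene known from testis, had levels of -3.79 and -3.58 in sort 1 and -2.57 and -1.73 in sort 2 (1.54 ± 0.25, adjusted p = 0.0274). Dnajc5, the cysteine string protein of secretory vesicles, had levels of 5.65 and 5.42 in sort 1 and 6.81 and 6.99 in sort 2 (1.36 ± 0.23, adjusted p = 0.0285). In neither gene did the sorts overlap. The Dnajc5 call rests on 1 probe, since its other probes above background differed by -0.19 and -0.44, and with the mean of all probes the difference was 0.25 (adjusted p = 0.543). In all, 2 of the 23 tested DnaJ C genes rose and 1 fell, 1 of 10 DnaJ B genes rose, and none of 4 DnaJ A genes was called (none at an unadjusted p under 0.05).

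Among small heat shock proteins 2 of 5 tested genes rose in sort 2. Hspb11, better known as the intraflagellar transport protein IFT25, had levels of 1.19 and 1.45 in sort 1 and 2.27 and 2.57 in sort 2 (1.09 ± 0.21, adjusted p = 0.0381). Hspb2, a muscle small heat shock protein, had levels of -3.44 and -0.25 in ACKR4-negative cells of sorts 1 and 2, and of -5.80 and -3.91 in ACKR4-positive cells. It was not well above background on the ACKR4-positive array of sort 1, and it rose by 2.55 ± 0.35 (limma, adjusted p = 0.0186). It passed the signal filter only through the sort 2 arrays, where it is high, so that p-value is not independent of the filter. Markers of mural cells, the contractile cells of vessel walls, were read beside Hspb2. Of 7 tested between sorts 1 rose, Acta2, by 2.36 ± 0.23 (limma, adjusted p = 0.00676). In both populations 2 of the 7 were higher in sort 2 and 3 were lower (Abcc9 -0.63, Cspg4 -0.18 and Kcnj8 -0.17). Tagln and Des differed by 1.25 and 1.09 without passing, and the list's summed level went from 5.91 to 6.67 in ACKR4-negative and from 1.58 to 1.74 in ACKR4-positive cells. The part of these cells in the Hspb2 difference was not tested.

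The Bag genes, the exchange factors of Hsp70, gave no call. None of the 6 was called between sorts (limma, none at an unadjusted p under 0.05), and their differences ran from -0.22 for Bag2 to 0.42 for Bag1. Bag1 had levels of 4.60 and 4.84 in ACKR4-negative cells, compared with 4.09 and 4.70 in ACKR4-positive cells. Hspbp1, another exchange factor, had levels of 1.42 and 1.52 in sort 1 and 2.21 and 2.22 in sort 2 (0.74 ± 0.21, adjusted p = 0.0819).

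Genes outside the family, listed for the same pathways, were read from the same fit. Heat shock factors and other chaperones numbered 23 tested genes, of which 1 rose, none fell and the median was -0.03. Hsf2, a heat shock factor, had levels of -2.36 and -2.27 in sort 1 and -1.09 and -0.93 in sort 2 (1.31 ± 0.21, adjusted p = 0.0262). Hsf1, the factor of the heat shock response, differed by -0.12 ± 0.21 (adjusted p = 0.711), and the cytosolic chaperonin subunits Cct2 to Cct8 lay between -0.42 and 0.45.

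Among 19 tested genes of the unfolded protein response, which ER stress induces, 3 rose in sort 2 and none fell, with a median of 0.45. Sdf2l1, a partner of Hspa5, had levels of -0.29 and -0.03 in sort 1 and 2.11 and 2.28 in sort 2 (2.35 ± 0.21, adjusted p = 0.0054). Calr and Manf, both ER proteins, rose by 1.26 ± 0.21 and 1.06 ± 0.21 (adjusted p = 0.0283 and 0.042). Xbp1 differed by 0.86 ± 0.22 without passing (adjusted p = 0.0655), while Atf6 and Atf4 differed by -0.88 and -0.72.

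Immediate early genes, which tissue dissociation is known to switch on within minutes, were in part lower in sort 2, as Hspa1a was. Of 20 tested, 4 fell in sort 2 and none rose, and the median was -0.81. In both populations 14 were lower, while 76.1% of all genes tested had 1 direction in both. Atf3 had levels of 2.13 and 2.77 in sort 1 and 0.29 and -0.67 in sort 2 (-2.63 ± 0.41, adjusted p = 0.024). Fosb, Fos and Ier3 fell by 1.76 ± 0.38, 1.46 ± 0.27 and 1.35 ± 0.23 (adjusted p = 0.0467, 0.0349 and 0.0303). Ier2, Ier5 and Klf6 differed by 0.12, 0.38 and 0.05. The link of Hspa1a to these genes was not tested, and the deposited labels give the same digestion steps for both sorts.

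**Figure D3:**
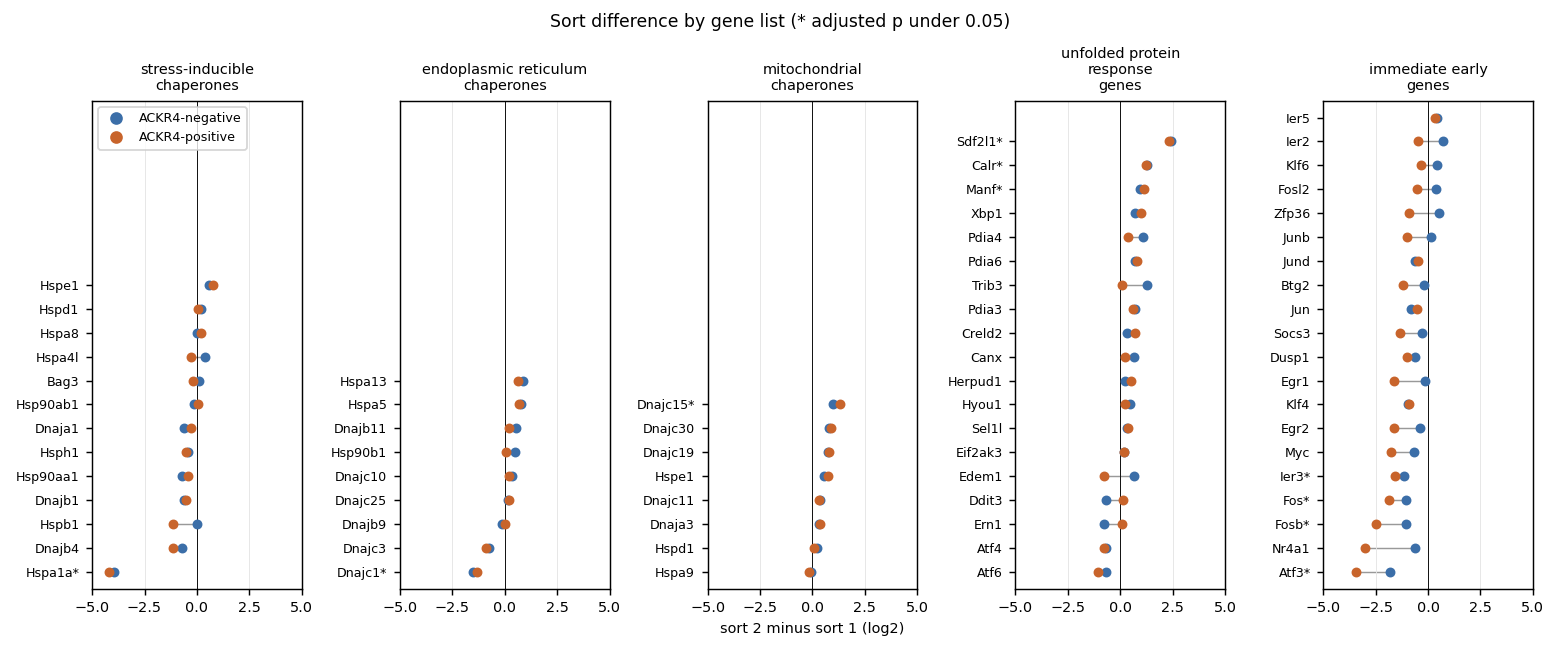
Sort 2 minus sort 1 (log2, horizontal axis) for each tested gene of 5 lists, with 1 point per population joined by a line and an asterisk for adjusted p under 0.05. Hspa1a stands alone at the left of the stress-inducible list, mitochondrial chaperones, by their brightest probe, lie mostly right of 0 with 1 call, and most immediate early genes lie left of 0.

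None of the 10 endothelial markers was called between sorts (limma, 5 at an unadjusted p under 0.05), while 8 were lower in sort 2 in both populations, with Pecam1 at -0.68 and Emcn at -1.61. Markers of other cell types also differed between the sorts. Among lymphocyte markers Ms4a1, Cd3d and Cd79a rose in sort 2 (limma, adjusted p = 0.0394, 0.00748 and 0.0356). Ms4a1, Cd3d, the macrophage marker C1qa and the platelet marker Gp9 passed the signal filter only through the sort 2 arrays. Their calls are therefore not independent of that filter. Macrophage markers rose in 2 of 9 (C1qa and C1qb), with log2 summed levels of 4.75 and 5.27 in sort 1 and 4.91 and 5.54 in sort 2. Of the megakaryocyte and platelet markers 3 of 6 tested rose. Erythroid markers had summed levels of 8.93, 4.95, 4.19 and 6.12 on ACKR4-negative sorts 1 and 2 and ACKR4-positive sorts 1 and 2, highest on the first array. The part of these cells in the member differences was not tested.

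Probes of 1 gene gave a further measure. Of 21 members with at least 2 probes above background on all 4 arrays, 7 had probes whose sort differences lay 1 or more apart, and 1, Hspa4, had probes whose population differences did. For 20 of them the probe positions give an order along the gene. The probe farthest 3′ had the higher sort difference in 15 of 20, with a median gap of 0.25. Over all 3343 genes with such probes this held in 65.0%, with a median gap of 0.16, which was 0.22 in ACKR4-negative and 0.08 in ACKR4-positive cells. The same gap in the population difference had a median of 0.04.

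In Hspa8 the 3′ probe differed by 0.08 between sorts and the 5′ probe by -1.16. In Hspa13 the values were 0.75 and -0.63, in Dnajc11 0.34 and -1.04, and in Dnajc21, a factor of ribosome assembly, -1.08 and -2.35. Dnajc19, a mitochondrial import J-domain protein, went the other way, with -0.64 at the 3′ and 0.77 at the 5′ probe. The direction of the sort difference in Dnajc5, Hspa13, Dnajc11, Dnajc19, Dnajb6 and Hspa8 thus depends on the probe. It also does in Hspa4 (-0.472 to 0.274), Dnajc8 (-0.019 to 0.324) and Bag6 (-0.072 to 0.074). Population differences changed sign between probes too, among others in Hspa4 (-0.485 to 0.581) and Bag6 (-0.174 to 0.589). Hspa1a, Dnajc1, Dnajb3, Dnajc15 and Hspb2 have 1 probe each and could not be examined this way. How far probe position bears on the sort differences was not tested.

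**Figure D4:**
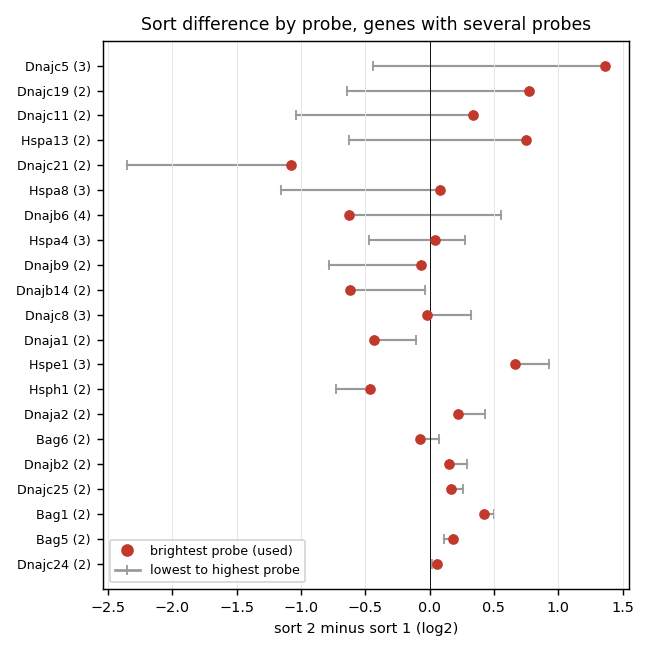
Sort 2 minus sort 1 (log2, horizontal axis) for the 21 members with several probes above background on all 4 arrays, from the lowest to the highest probe, with the brightest probe in red and the number of probes in brackets. The span is 1.80 in Dnajc5 and at least 1 in 7 genes, and its median is 0.34.

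The second comparison asks how ACKR4-positive cells differ from ACKR4-negative cells. Of 67 members tested, 1 passed, Hspa12a, against 5.62% of all genes tested. The other 66 were not called, and 1 of them, Hspb1, had an unadjusted p under 0.05. In simulated data this test missed most 4-fold changes, so the lack of a call does not mean equal levels. The median difference was 0.14 over the members and 0.04 over all genes. In both sorts 31 members were higher and 16 lower in ACKR4-positive cells. The direction was the same in both sorts in 70.1% of the members and in 73.1% of all genes tested.

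Hspa12a, an atypical Hsp70, had levels of -6.11 and -5.56 in ACKR4-negative cells, where its probe was not well above background, and of -2.82 and -3.53 in ACKR4-positive cells. It passed the signal filter only through the ACKR4-positive arrays, where it is high. That the populations did not overlap, and the p-value, are therefore not independent of that filter. The gene rose by 2.66 ± 0.39 in ACKR4-positive cells (limma, adjusted p = 0.0365), and against the lowest signal above background it was at least 5.27-fold higher. That bound takes, on each dim array, the higher of the gene's own level and the lowest level among probes above background. With normexp background correction the difference was 0.92 (adjusted p = 0.172). The call was also lost without ACKR4-negative replicate 1 (adjusted p = 0.145), ACKR4-negative replicate 2 (0.0824) or ACKR4-positive replicate 1 (0.0947). The probe lies at chr19:58870521-58870580 on the minus strand of mm9.

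Hspb1, the small heat shock protein Hsp27 that binds actin and is abundant in vessel walls, had levels of 6.28 and 6.29 in ACKR4-negative cells, compared with 4.22 and 3.07 in ACKR4-positive cells. Both ACKR4-positive arrays were lower, with differences of -2.06 in sort 1 and -3.22 in sort 2. The difference of -2.64 ± 0.46 lay just outside the threshold (adjusted p = 0.0536). Hspb2 had a difference of -3.01 ± 1.26 (adjusted p = 0.365), and its ACKR4-negative array of sort 1 (-3.44) lay close to its ACKR4-positive array of sort 2 (-3.91).

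With the replicate number as a block, which removes the difference between sorts, 3 members were called, against 15.3% of all genes. Hspa12a rose by 2.66 ± 0.35 (limma, adjusted p = 0.00822). Hspb1 and Hspb2 fell in ACKR4-positive cells, with differences of -2.64 ± 0.33 and -3.01 ± 0.36 (adjusted p = 0.00719 and 0.00589). Hspb2 passed the signal filter only through the ACKR4-negative arrays, where it is high, and Hspa12a only through the ACKR4-positive arrays. The p-values of Hspb2 and Hspa12a are therefore not independent of that filter. Hspb1 also passed with normexp correction (adjusted p = 0.037), with a trended prior (adjusted p = 0.0478) and without ACKR4-positive replicate 1 (adjusted p = 0.0366).

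Markers of other cells moved with this comparison. All 10 megakaryocyte and platelet markers fell in ACKR4-positive cells, with log2 summed levels of 6.68 and 7.86 in ACKR4-negative against -0.69 and 1.07 in ACKR4-positive arrays. On the ACKR4-positive arrays 4 and 6 of the 10 were well above background, so the size of the fall is a bound for the rest. Those not above background on both ACKR4-positive arrays passed the signal filter only through the ACKR4-negative arrays, so their calls are not independent of it. Mural cell markers fell in 4 of 9 tested genes, with summed levels of 5.91 and 6.67 against 1.58 and 1.74. Of these, Myh11 also passed the filter only through the ACKR4-negative arrays. Of 10 endothelial markers 3 fell (Kdr, Emcn and Esam), Tek differed by 1.81 ± 0.49 without passing (adjusted p = 0.155), and Tie1 and Eng both differed by 0.07. The part of these cells in the differences of Hspb1, Hspb2 and Hspa12a was not tested.

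**Figure D5:**
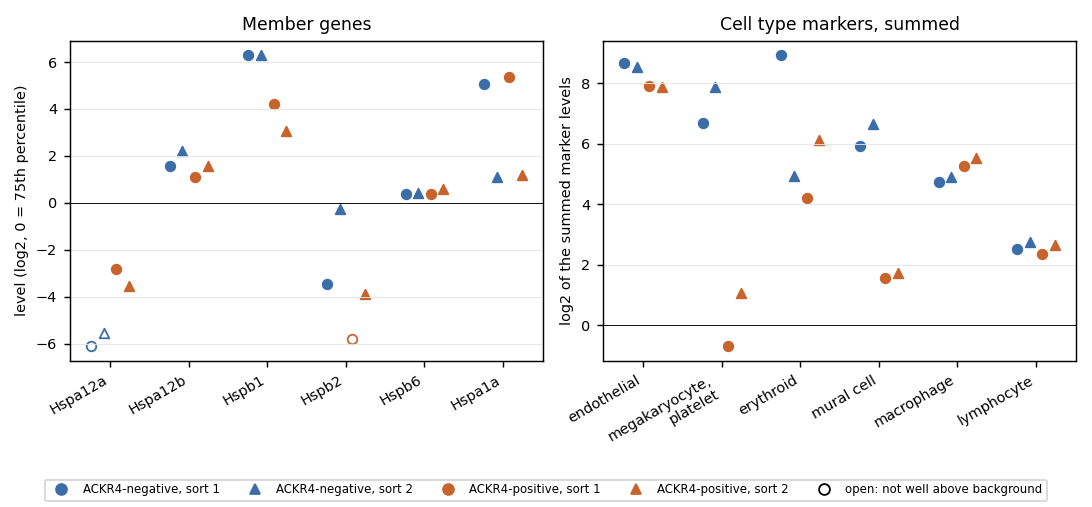
Left, level (log2, 0 at the array's 75th percentile) of 6 members on the 4 arrays; right, log2 of the summed levels of 6 marker lists on the same arrays, with colour for population and shape for sort. Hspb1 and Hspb2 are lower and Hspa12a higher in ACKR4-positive cells, while platelet and mural markers lie lower in ACKR4-positive cells, and Hspa1a follows the sort.

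The other members were not called between populations. Hspa1a had a difference of 0.18 ± 1.93 (adjusted p = 0.985), with the sorts far apart in both populations. Hspa5, Hsp90aa1, Hsp90ab1 and Hsp90b1 differed by -0.02, 0.19, -0.12 and 0.16, and Hspa8 by -0.44 ± 0.27 (adjusted p = 0.563). Hspa13 differed by 0.90 ± 0.44 (adjusted p = 0.458). Dnajc27, a small GTPase with a J domain, had levels of -4.42 and -4.03 in ACKR4-negative cells, compared with -4.80 and -5.93 in ACKR4-positive cells, the last not above background (-1.14 ± 0.47, adjusted p = 0.359).

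By group, none of 13 genes of the stress-inducible list (1 at an unadjusted p under 0.05, Hspb1), 9 ER chaperones and 8 mitochondrial chaperones (none at an unadjusted p under 0.05) passed by limma, and their medians were -0.03, 0.15 and 0.22. The J-domain genes had medians of 0.00 for DnaJ A, 0.25 for DnaJ B and 0.14 for DnaJ C, with no call and none at an unadjusted p under 0.05. For Bag genes the differences ran from -0.58 for Bag5 to 0.59 for Bag6. Of 20 unfolded protein response genes 1 passed, Chac1, a glutathione-degrading enzyme, with levels of -1.84 and -0.75 in ACKR4-negative cells, compared with -7.76 and -6.26 in ACKR4-positive cells (-5.71 ± 0.67, adjusted p = 0.0211). Its probe was not well above background on either ACKR4-positive array, and by the bound used for Hspa12a it was at least 20.8-fold higher in ACKR4-negative cells. Chac1 passed the signal filter only through the ACKR4-negative arrays, where it is high, so its p-value is not independent of that filter.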

How the data were processed

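RNA of 4 samples was measured on 1-colour Agilent arrays, and the members, gene lists and tests were chosen with earlier results of these data known. Per the file headers, the authors' processed signal is an intensity made with Agilent Feature Extraction 10.7.3.1, background-subtracted and spatially detrended, with no scaling from array to array. The deposited intensity table (75th percentile 1500, lowest value 15) correlated with the scanner values at 0.995 to 0.998 on the log2 scale and served as an alternative. All arrays lie on 1 slide and in 1 scan.

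Outlier spots (1.91% to 1.96%) were left out, 4 spots per probe were averaged as log2 signal, and each array's 75th percentile was subtracted (linear signals of 590.3 to 949.3). A probe entered a test where every array of 1 group, or of both, had over 50% of the probe's spots well above background. Populations (2 arrays each) and sorts (2 arrays each, with population as a term) were compared by limma 3.58.1 (lmFit, eBayes, 2-sided, in R 4.3.3); calls were made at 0.05 after Benjamini-Hochberg adjustment across the genes tested. Errors are standard errors of the fit.

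The replicate numbers pair the arrays by sort, since each sort gave 1 array of each population. Same-numbered arrays deviated together from their population means (r = 0.60). With 2 arrays per mean, either replicate number gives this same value by construction, so it is 1 check. Named genes were a fixed list of major chaperones, all called members, the 10 largest differences per comparison, the 3 brightest members and up to 4 genes of each other list; probe order and further members were added after their values were seen. The tests were checked on simulated data. False calls of the sort test stayed near the nominal share with variances drawn from the fitted prior. They exceeded it with each gene's moderated variance, so its adjusted p-values may be too small. The population test recovered 0% of simulated 2-, 4- and 16-fold changes with prior variances. With moderated variances it recovered 0%, 16.4% and 95.5%, and 8 of its 82 calls were false. A gene not called between populations may therefore still differ. Alternatives were normexp (offset 50), quantile and median scaling, other filters, all probes, kept outlier spots, the deposited table, a trended prior, the block and leaving out each array.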

Additional observations from a re-analysis of the deposited data

How the results depend on the processing

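The 7 members called between sorts became 16 with normexp correction, 2 with quantile normalization, 11 with only probes above background on all 4 arrays, 15 with a trended prior and 0 without population as a term (13 members at an unadjusted p under 0.05 by limma). For all genes the sort calls were 3673, 484, 2689, 3101 and 0 with normexp, quantile, that filter, trended prior and no population term, against 1888. The median sort difference of the members was -0.07 with quantile, -0.007 with median centring and 0.14 with no filter, and the median population difference was 0.18, 0.21 and 0.11. In the population comparison 0 members were called with probes above background on all 4 arrays (1 at an unadjusted p under 0.05 by limma). That filter leaves Hspa12a out, so the gene was not tested there. With a trended prior 2 members were called, and with the replicate block 3. All genes gave 441 calls with that filter and 2651 with the block, which held all 975 main calls. Leaving out each array gave 0 to 1 members, 387 to 891 genes and a median of 0.045 to 0.117, and a median sort difference of 0.04 to 0.12; a sort test without 1 array has no residual degree of freedom. Of 473 values of 34 named genes between populations, 464 kept their side of the threshold, and of 460 between sorts 430 did, with 15 calls lost and 15 gained; none reversed a call. Hspa1a and Dnajc1 lost their sort calls only without the population term. The replicate block changed the calls of Hspb1 and Hspb2 among members. Signal over background limits Hspa12a, Hspb2, Hspb7, Hspb8 and Dnajc27, and 10 members could not be measured.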

Other observations

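Cryab, a small heat shock protein whose name falls outside the member rule, is a neighbour of Hspb2, and their RefSeq gene models overlap by 1282 bases. Its levels were -0.26 and 0.72 in ACKR4-negative cells, compared with -1.58 and -0.72 in ACKR4-positive cells. In each population it was higher in sort 2, and in each sort it was lower in ACKR4-positive cells, as was Hspb2. Its sort difference of 0.92 ± 0.21 (limma, adjusted p = 0.0533) and its population difference of -1.38 ± 0.51 (adjusted p = 0.291) did not pass.

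Serpinh1, the collagen chaperone Hsp47 whose name also falls outside the rule, had levels of 6.19 and 5.90 in sort 1 and 6.83 and 6.58 in sort 2 (0.66 ± 0.21, adjusted p = 0.103). Trib3, which like Chac1 is induced by ATF4, had levels of -2.29 and -0.995 in ACKR4-negative cells, compared with -4.58 and -4.48 in ACKR4-positive cells (-2.89 ± 0.50, adjusted p = 0.0529).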
